A study of Mus musculus with 18 samples.

Results

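The right atrium (RA) and left atrium (LA) of mice labelled KO for Zfhx3 were compared by messenger RNA sequencing. The comparison takes the 3 KO right atrial libraries against the 3 KO left atrial libraries, 6 of the 18 samples of the series, and pairs them by the animal number that begins each column name, so that each of 3 mice gave 1 library from each side. Zfhx3 encodes a large transcription factor with zinc fingers and homeodomains, and variants near the human gene have been associated with atrial fibrillation. The other mice, 3 labelled WT and 3 labelled Het for Zfhx3, were sampled in the same way and are used here only where the contrast between atria in KO mice is set beside theirs. The labels give no further treatment, and the allele, any Cre driver, the strain, the age and the sex of the mice are not stated in them. Whether the altered allele was absent from the whole body or from some cells only is therefore not known here.

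The atria acquire different identities in the embryo. On the right, where the sinus node lies, the myocardium keeps secreting Bmp10, a bone morphogenetic protein of the heart that signals through ALK1 and endoglin on endothelial cells and through SMAD proteins to genes such as the Id family. Whole atria also contain endothelium, endocardium, fibroblasts, epicardium, macrophages and nerve fibres, and the sides differ in the veins and valves attached to them.

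KO libraries held 21771041 to 33483085 counts, and mitochondrially encoded genes took 18.75 to 22.34% of them with overlapping ranges between atria. RA and LA libraries of the same KO animal deviated together from their group means (correlations of 0.235 to 0.435 across genes). Those of different animals gave -0.295 to 0.0568. Deviations from a mean of 3 libraries cancel out, so these lower values follow in part from the positive ones and are no separate result. Xist and the Y-linked gene Ddx3y showed a female pattern in KO animal 1 and a male pattern in KO animals 2 and 3, in both atria of each. Zfhx3 itself had 502, 525 and 494 counts in LA and 409, 439 and 521 in RA, or 15.3 to 17.4 CPM (counts scaled to library size) in LA and 14.9 to 18 CPM in RA. It was not called between the atria (log2 difference, RA minus LA, of 0.01, SE 0.09, edgeR adjusted p = 0.947). Its level was 13.9 to 20.4 CPM in WT libraries and 16.4 to 19.9 CPM in Het libraries. Counts over the whole gene were thus not lower in mice labelled KO, and the label cannot be checked from them. They also do not show which part of the gene, if any, was altered. Whether the counting used strand is not stated, so reads of the following genes described here cannot be told apart from those of a gene that overlaps an exon on the opposite strand, and their values are uncertain to that extent: Abcc9, Ace, Acsl1, Adora1, Arpp21, Bhlhe40, Bmp5, Cacna1d, Cacna2d2, Chrd, Chrm2, Ckmt2, Col15a1, Cp, Cpne5, Eln, Eng, Fabp3, Gata5, Gja5, Has2, Id4, Irx3, Kcnk2, Kcnk3, Lox, Mcm7, Mfap4, Myl2, Myl4, Ndufa4l2, Nos1, Npr1, Npr3, Pdgfra, Pi16, Pln, Ramp3, Reln, Rgs6, Rora, Ryr3, Shox2, Slc2a1, Sox17, Tbx18, Tbx3, Tgfb3, Timp4, Ucp2 and Zfhx2. Such overlap was looked for only in called members of the gene lists, in genes named by the rule given below and in mitochondrially encoded genes. Other genes described here were not checked for it.

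The KO atria differed widely. Of 17511 genes tested, 3226 were called at an edgeR adjusted p under 0.05 (18.4%), 1517 higher in RA (8.66%) and 1709 higher in LA (9.76%). Counts of called list members given below are to be read against these shares. More than 2-fold differences were fewer, with 338 called genes higher in RA and 428 higher in LA, and differences of more than 8-fold were seen for 38 and 57 called genes. The direction was the same in all 3 animals for 3209 of the called genes. For 2707 of the called genes the 3 RA values lay wholly above or below the 3 LA values. Over all 17511 genes tested this held for 4674 (26.7%). The counts among called genes follow in large part from the call, which used the same libraries, and are no separate result. The number of calls rested on the pairing and on the number of animals: it was 1632 without the animal block and 2117 without animal 2.

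**Figure D1:**
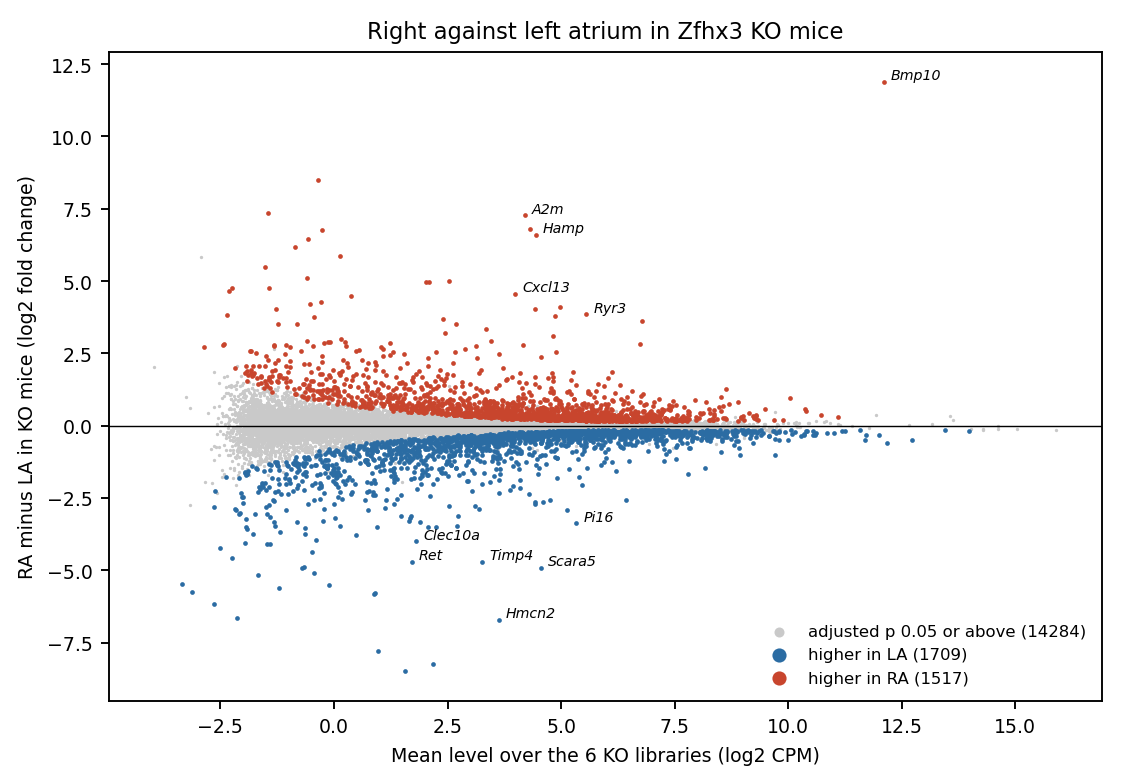
Each point is a gene, with its mean level over the 6 KO libraries (log2 CPM) across and its RA minus LA difference (log2 fold change) upward, with 1517 called genes higher in RA in red, 1709 higher in LA in blue and the rest in grey. Bmp10 stands alone at the upper right as a gene both abundant and near absent on 1 side, while Hmcn2 lies lowest among the labelled genes; a tested gene without KO reads is not drawn.

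Bmp10, the BMP ligand of the right atrium, separated the KO atria by the widest margin of the genes higher in RA. Bmp10 (ENSMUSG00000030046.7, chromosome 6, 87428994 to 87437677, plus strand, GRCm38) had 8703, 9286 and 8513 CPM in RA and 2.4, 2.51 and 2.08 CPM in LA of animals 1, 2 and 3. Every RA library thus lay far above every LA library, and the fitted fold was 3785 (log2 difference 11.89, SE 0.43, edgeR adjusted p = 1.13e-04). Per length, Bmp10 averaged 1967 RPKM in RA and 0.519 RPKM in LA. Since these are whole atria, fewer cells of a type and less RNA per cell cannot be told apart, here or in the results that follow.

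Of the 17 tested genes in a list of left-right and sinus node identity genes, 7 were higher in RA, 2 were higher in LA and 8 were not called. The list's median log2 difference was 0.25, against 0.001 over all genes tested. Among the genes higher in RA were Cacna2d2, an auxiliary subunit of voltage-gated calcium channels that is known as a marker of the sinus node, and Hcn4, the main pacemaker channel of the node. Cacna2d2 rose from 15.6, 18.1 and 16.1 CPM in LA to 164, 220 and 227 CPM in RA (log2 difference 3.61, SE 0.14, edgeR adjusted p = 2.04e-06). Hcn4 was low in both atria, at 1.13, 1.62 and 1.68 CPM in LA and 4.19, 3.32 and 5.08 CPM in RA, without overlap (log2 difference 1.49, SE 0.29, edgeR adjusted p = 0.00306). Rgs6, a regulator that shortens muscarinic signalling in pacemaker cells, had 38.8 to 49 CPM in LA and 103 to 121 CPM in RA (log2 difference 1.40). Cpne5, a calcium-dependent membrane-binding protein of the copine family, differed by 2.54, with an LA value in animal 3 (15.8 CPM) well above the others (6.32 and 5.16 CPM), and its call was lost without animal 1 (edgeR adjusted p = 0.0892).

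The sinus node transcription factors Shox2, Tbx3 and Tbx18 did not pass the test. Shox2, which keeps the node's programme on, had 1.13, 1.06 and 1.77 CPM in LA and 3.31, 2.61 and 2.27 CPM in RA, so the atria did not overlap, but its log2 difference of 1.03 had an SE of 0.46 (edgeR adjusted p = 0.195), and it was called in 4 of 17 alternative analyses. Tbx3, which represses the working myocardial programme in the node, differed by 0.06 and Tbx18, a factor of the node's head and of the epicardium, by 0.07, with overlapping atria for both. Tbx5, a factor of the whole atrial myocardium, was slightly higher in RA, at 335 to 360 against 293 to 305 CPM (log2 difference 0.21), and this call was lost without animal 3 (edgeR adjusted p = 0.0999). The SPARC-related matrix gene Smoc2 was higher in LA (log2 difference -1.33). The Nodal pathway genes Lefty1 and Lefty2, which act on the left side of the early embryo, were near the detection limit in both atria (0.775 to 1.13 and 0.0687 to 0.297 CPM in LA, 0.508 to 0.745 and 0.305 to 0.441 CPM in RA) and neither was called.

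Besides Bmp10, the genes with the largest excess in RA included secreted and cell surface proteins. A2m, a secreted protease inhibitor, had 48.9, 29.8 and 31.1 CPM in RA and 0.344, 0.0661 and 0.279 CPM in LA (log2 difference 7.28, SE 0.16, edgeR adjusted p = 1.72e-16). Cd207, the gene of the C-type lectin langerin, had 37.3, 41.7 and 38.7 CPM in RA and 0.412, 0.364 and 0.279 CPM in LA (log2 difference 6.79). Hamp, the gene of the iron hormone hepcidin, had 18.4, 48 and 62.9 CPM in RA and 0.378, 0.595 and 0.341 CPM in LA, a fitted fold of 97.2. None of these 3 genes overlapped between atria, although Hamp in RA varied among the animals, with animal 1 the lowest.

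Lower on the scale came Arpp21 (log2 difference 4.99), Thbs4 (4.97), a thrombospondin of the matrix, Myl2 (4.97), the ventricular regulatory light chain, and Cxcl13 (4.57), a chemokine that attracts B cells. Adm, the vasodilator peptide adrenomedullin, had 66.1, 49.4 and 62.8 CPM in RA against 2.96, 3.8 and 3.63 CPM in LA. Vsig4, a complement receptor of resident macrophages, had 37.9 to 43.6 CPM in RA against 2.21 to 2.64 CPM in LA. Ryr3, a ryanodine receptor calcium release channel that is not the main cardiac form, and Efnb3, a membrane-bound ephrin, complete the 12 largest differences of genes with at least 5 CPM. All 12 were called in each of the 17 alternative analyses. Myl2 stayed low even in RA, at 10.5, 9.31 and 3.83 CPM.

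Among the genes higher in LA, a wide margin was seen for Pla2g2d, a secreted phospholipase, with 4.83 to 7.44 CPM in LA and a single count over the RA libraries (ratio 487, 95% interval of counting error 87.1 to 19280). Hmcn2, a large matrix protein of the hemicentin family, had 20.5, 26.1 and 27 CPM in LA and 0.397, 0.102 and 0.237 CPM in RA (log2 difference -6.71, SE 0.21, edgeR adjusted p = 5.42e-12). Scara5, a scavenger receptor that takes up ferritin and marks a class of fibroblasts, had 37.8, 50.8 and 48.5 CPM in LA and 1.41, 1.52 and 1.63 CPM in RA (log2 difference -4.91). No LA library of these genes came within reach of an RA library.

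Ret, the receptor of the GDNF family of neurotrophic factors, followed with a log2 difference of -4.71, Timp4, an inhibitor of matrix metalloproteinases, with -4.70, and Clec10a, a lectin of macrophages and dendritic cells, with -4.00. Timp4 varied more among the left atria (11.9, 27.5 and 16 CPM) than most, yet its RA values stayed at 0.397 to 1.19 CPM. Mmrn1, Cpne7, Ddit4l, Pi16 and Vtn had differences of -3.51 to -3.34. Cpne7, another copine, was low in LA of animal 1 (2.54 CPM against 9.72 and 13.8 CPM), and with KO libraries alone and no animal block it was no longer called (edgeR adjusted p = 0.102). Pi16, a protein of adventitial and universal fibroblasts, was the most abundant of these, at 67.9, 75.1 and 77.6 CPM in LA and 6.51 to 8.05 CPM in RA.

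**Figure D2:**
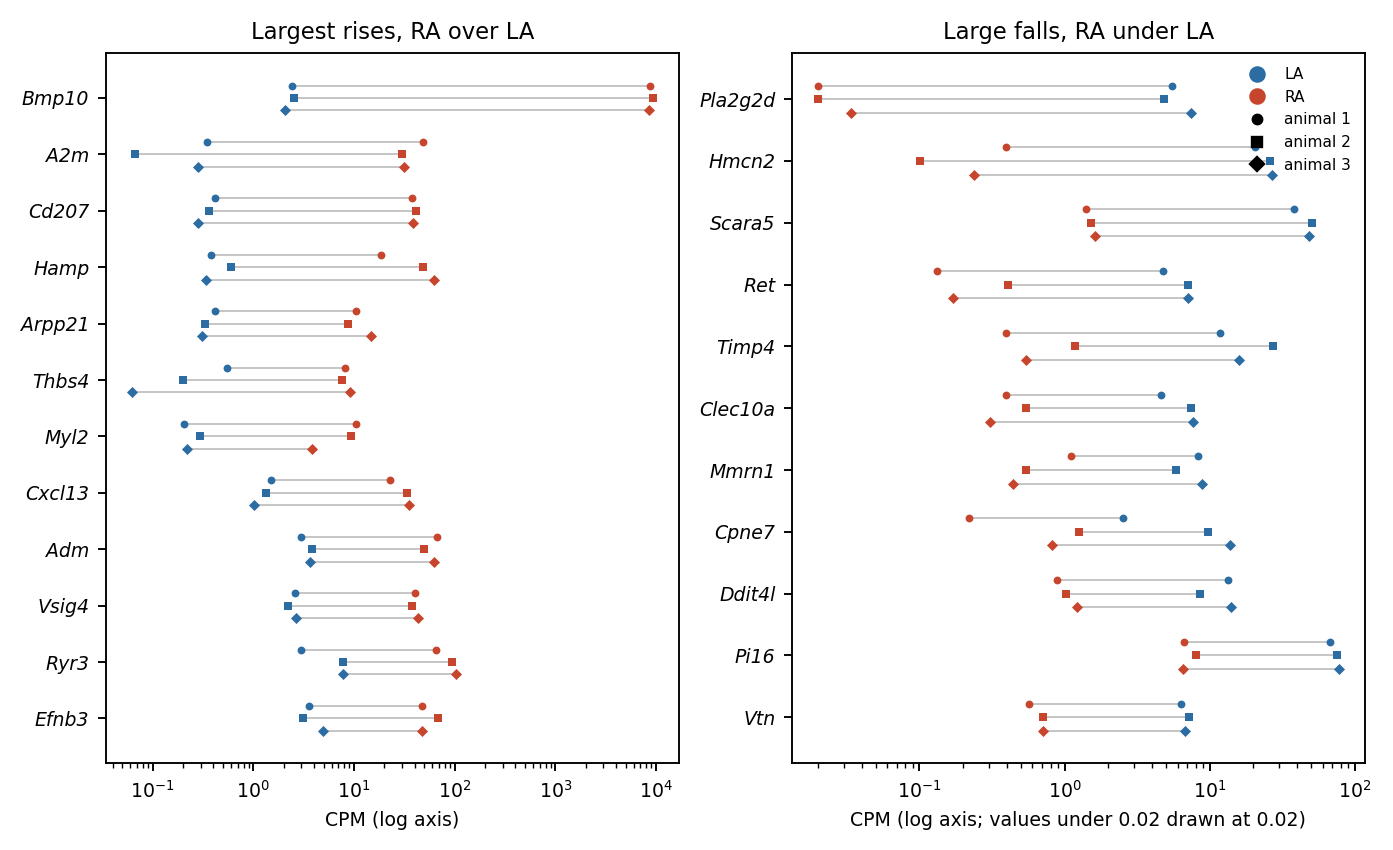
Level in CPM (log axis) of 12 genes with the largest differences toward RA and 11 of those toward LA, with LA in blue, RA in red, a symbol for each of the 3 KO animals and a line joining the atria of an animal. All lines of a panel run in the same direction, which the choice of these genes required. The atria of no gene overlap, which is likely for genes taken for the largest differences. Differences run from 3785-fold for Bmp10 to a log2 difference of -3.34 for Vtn.

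Cardiac transcription factors differed by small amounts. Of 27 tested, 9 were higher in RA, 5 were higher in LA and 13 were not called, with a median of 0.08. Hey1, a Notch and BMP target of the atria and endothelium, had 14.5 to 17.1 CPM in LA and 35.2 to 43.4 CPM in RA (log2 difference 1.28, SE 0.07, edgeR adjusted p = 2.44e-10). Tbx20, a T-box factor of myocardium and endocardium, had 281 to 341 CPM in LA and 445 to 605 CPM in RA (log2 difference 0.74). Gata5, a factor of the endocardium, and Irx3, a factor of the conduction system, were lowly expressed and higher in RA by 1.23 and 1.26. Prrx1, a mesenchymal factor that is itself near a human atrial fibrillation locus, was higher in LA (log2 difference -0.66). The paralogs of Zfhx3 moved apart, with Zfhx2 higher in RA by 0.54 and Zfhx4 higher in LA (log2 difference -0.87), while Gata4, Mef2a and Nr2f2 were not called.

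The hormones of the atrium overlapped between the sides. Nppa, the gene of atrial natriuretic peptide, had 2353, 2703 and 3120 CPM in LA and 2282, 3099 and 2761 CPM in RA, with overlapping atria (log2 difference -0.01, SE 0.15, edgeR adjusted p = 0.978). Nppb, the B-type peptide, had a difference of -0.19 (SE 0.10) and overlapped as well. Their partners did differ: Mme, the gene of neprilysin, a protease that degrades natriuretic peptides, had 9.62 to 14.4 CPM in LA and 1.15 to 1.73 CPM in RA (log2 difference -3.12, edgeR adjusted p = 3.31e-09). The clearance receptor Npr3 was higher in RA by 0.58 (574 ± 58.9 CPM in LA and 860 ± 83.3 CPM in RA, SD, n = 3), and the signalling receptor Npr1 was higher in LA (log2 difference -0.45). Of 11 atrial contractile and secretory genes, 5 were higher in LA and 2 higher in RA, the atrial light chains Myl7 and Myl4 with differences of -0.50 and -0.32 and the secreted glycoprotein Dkk3 with 0.95 (647 to 771 CPM in LA, 1211 to 1475 CPM in RA).

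Genes of BMP and TGF-beta signalling were higher in RA more often than in LA. Of 46 tested, 17 were higher in RA, 6 were higher in LA and 23 were not called, and the median log2 difference was 0.15. Without the animal block 11 and 4 were called. Among ligands, Bmp10 was joined by Bmp5 (0.496 to 0.806 CPM in LA, 1.28 to 3.46 CPM in RA, log2 difference 1.95) and Gdf10 (1.09), both weakly expressed, while Tgfb3 was higher in LA (log2 difference -0.40). Bmp2, Bmp4 and Tgfb1 were not called. Among receptors, Eng, the gene of endoglin, had 364, 403 and 284 CPM in LA and 590, 623 and 610 CPM in RA (log2 difference 0.81, SE 0.08, edgeR adjusted p = 3.9e-06). Acvr1, a type I BMP receptor, was higher in RA by 0.72, and Acvrl1, the gene of ALK1, was not called at -0.06. Bmpr1b, another type I receptor, was near 1 CPM and higher in LA (log2 difference -1.60).

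Among intracellular members and targets of the pathway, calls were found in both directions. Smad9, a receptor-activated SMAD of the BMP branch, had 3.54, 3.5 and 4.43 CPM in LA and 20, 20.1 and 23.1 CPM in RA (log2 difference 2.46, SE 0.10, edgeR adjusted p = 1.34e-12). The inhibitory SMADs, which BMP signalling induces and which dampen it, were both higher in RA: Smad6 had 12.8, 16.2 and 9.83 CPM in LA and 39.4, 41.2 and 39 CPM in RA, and Smad7 had 30.3, 36.1 and 29 against 62.5, 71.4 and 69.5 CPM. Their log2 differences were 1.64 and 1.09, and the atria of neither overlapped. Of the Id genes, inhibitors of helix-loop-helix factors and classical BMP targets, Id2 (1.21), Id3 (0.92) and Id4 (1.07) were higher in RA. Id1 missed the threshold, with 10.3, 18 and 16.4 CPM in LA and 24.8, 32.8 and 20.6 CPM in RA (log2 difference 0.80, SE 0.23, edgeR adjusted p = 0.0833). Id2 fell outside the threshold without the animal block (edgeR adjusted p = 0.0633). Smad1 was higher in LA (log2 difference -0.30), a call lost without any 1 of the 3 animals, and Smad5 was not called. Chrd, the gene of the BMP antagonist chordin, had 4.09, 8.53 and 6.42 CPM in LA and 1.63, 1.83 and 2.31 CPM in RA (log2 difference -1.71).

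In a list of iron handling genes, 5 of 15 were higher in RA and 2 were higher in LA (46.7% called, against 18.4% of all genes tested). Hamp, whose transcription in the liver is known to follow BMP and SMAD signalling, was described above. Slc40a1, the gene of the iron exporter ferroportin that hepcidin binds, had 65.2, 56.1 and 48.4 CPM in LA and 40.3, 36.2 and 29.7 CPM in RA (log2 difference -0.68, SE 0.06, edgeR adjusted p = 3.26e-08). The ferroxidase gene Cp was higher in LA (log2 difference -0.54). Tfrc, the gene of the transferrin receptor, ranged from 76.5 to 260 CPM in LA and from 43.5 to 132 CPM in RA and was not called.

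The 250 bases before the transcription start are shown for Bmp10 and for 4 genes of BMP signalling or its known targets that were higher in RA with it, so that their letters can be compared. They are RefSeq sequences on GRCm38.p6, written 5′ to 3′ on the strand of the gene, at chr6:87428744-87428993 (Bmp10, plus), chr7:30944030-30944279 (Hamp, minus), chr3:54755332-54755581 (Smad9, plus), chr9:64022060-64022309 (Smad6, minus) and chr12:25096093-25096342 (Id2, minus). Capitals mark GGCGCC, a GC-rich core known from BMP-responsive elements, which reads the same on both strands.
Bmp10: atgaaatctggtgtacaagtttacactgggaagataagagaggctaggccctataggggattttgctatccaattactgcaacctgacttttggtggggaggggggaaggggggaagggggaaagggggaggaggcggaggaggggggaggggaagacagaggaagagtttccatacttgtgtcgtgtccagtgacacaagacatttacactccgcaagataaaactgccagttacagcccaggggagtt
Hamp: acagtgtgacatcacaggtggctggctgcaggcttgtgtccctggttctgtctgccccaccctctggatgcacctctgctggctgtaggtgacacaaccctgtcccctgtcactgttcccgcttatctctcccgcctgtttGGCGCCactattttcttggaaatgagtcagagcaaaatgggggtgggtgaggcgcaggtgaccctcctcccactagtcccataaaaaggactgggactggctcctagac
Smad9: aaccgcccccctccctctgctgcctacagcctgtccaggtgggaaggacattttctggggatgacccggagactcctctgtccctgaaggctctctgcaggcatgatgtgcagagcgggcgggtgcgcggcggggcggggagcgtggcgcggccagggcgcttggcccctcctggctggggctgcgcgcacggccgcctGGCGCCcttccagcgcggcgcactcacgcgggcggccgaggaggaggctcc
Smad6: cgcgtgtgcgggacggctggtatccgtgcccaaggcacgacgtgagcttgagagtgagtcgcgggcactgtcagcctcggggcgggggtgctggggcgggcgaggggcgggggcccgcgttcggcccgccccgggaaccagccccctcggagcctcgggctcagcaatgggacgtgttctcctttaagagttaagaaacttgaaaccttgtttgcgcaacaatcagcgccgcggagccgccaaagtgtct
Id2: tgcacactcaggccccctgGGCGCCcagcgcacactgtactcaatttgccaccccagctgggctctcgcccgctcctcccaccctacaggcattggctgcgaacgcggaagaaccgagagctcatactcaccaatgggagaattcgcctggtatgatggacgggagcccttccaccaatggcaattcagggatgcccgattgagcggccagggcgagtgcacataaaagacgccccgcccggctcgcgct
The GGCGCC core ends 104 bases before the start in Hamp, 46 bases before it in Smad9 and 226 bases before it in Id2, and it does not occur in these windows of Bmp10 and Smad6. Of all 32851 RefSeq promoter windows of this length 9.59% hold it. It was found in 6 of 16 windows from 13 BMP and TGF-beta genes called higher in RA and in 2 of 7 windows from 5 such genes called higher in LA. GTCTAGAC, a palindromic SMAD box, occurs in 0.167% of all windows and in none of these 23. The motif GGCGCC was chosen with the expression values known, the windows of 1 gene can overlap, and a match is a description of letters.

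**Figure D3:**
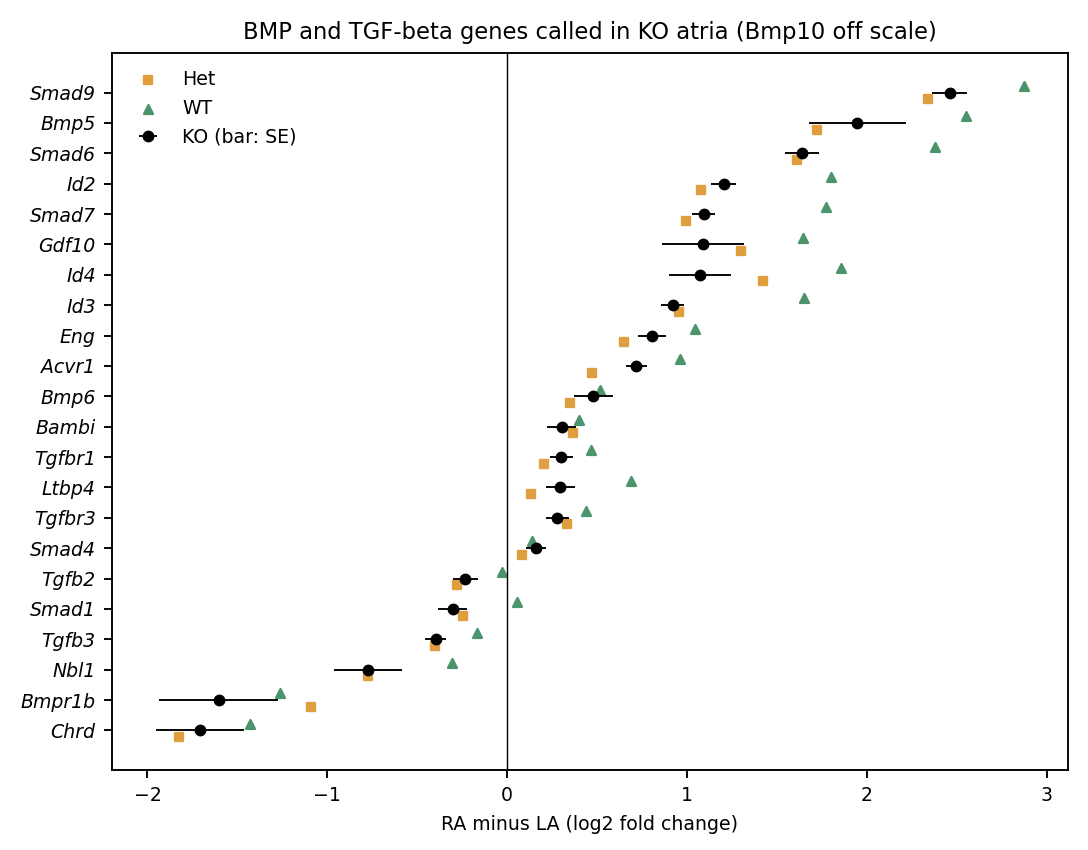
RA minus LA difference (log2 fold change) of the called BMP and TGF-beta genes other than Bmp10, with KO values as black points with their SE, Het values as orange squares and WT values as green triangles from a fit without the animal block. Smad9, Smad6, Id2 and Smad7 lie to the right in all 3 genotypes, at 2.46, 1.64, 1.21 and 1.09 in KO, and Chrd lies to the left at -1.71.

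Genes that set the electrical and calcium behaviour of atrial myocytes differed in both directions. Of 43 calcium handling genes, 9 were higher in RA, 10 were higher in LA and 24 were not called (median -0.09). Those higher in RA included channels of the cell surface: besides Cacna2d2, the pacemaker L-type subunit Cacna1d had 12.1, 13.3 and 11.5 CPM in LA and 39.3, 45.2 and 44.6 CPM in RA (log2 difference 1.81, SE 0.16, edgeR adjusted p = 2.63e-04). The T-type subunit Cacna1g was higher by 0.52 and the calcium pump Atp2b4 by 0.72. Cacna1c, the main L-type subunit of working myocardium, was not called at 0.21. Ryr3 had 2.99, 7.74 and 7.79 CPM in LA and 65.7, 94.6 and 103 CPM in RA, animal 1 being lowest on both sides.

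Among the calcium handling genes higher in LA were Ryr2, Casq2, Hrc, Pln and Sln. Ryr2, the cardiac calcium release channel, had 3533, 3734 and 3960 CPM in LA and 3019, 3053 and 2946 CPM in RA (log2 difference -0.32). Casq2, the calcium buffer of the store, and Hrc, another store protein, were higher in LA (log2 differences of -0.51 and -0.50). Pln, the gene of phospholamban, an inhibitor of the reticulum's calcium pump, had 553 to 644 CPM in LA and 326 to 408 CPM in RA (-0.77), and Sln, the related sarcolipin, differed by -0.32. An annotated gene at the same locus, Gm47644, overlaps an exon of Pln on the opposite strand and could share its reads. The pump itself, Atp2a2, was not called at -0.13.

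Of 16 sodium channel, HCN and connexin genes, 5 were higher in LA and Hcn4 alone was higher in RA (median -0.22). The share called was 37.5%, against 18.4% of all genes tested. Scn4b, an accessory subunit of sodium channels, had 8.21, 12.6 and 9.37 CPM in LA and 1.46, 1.46 and 1.49 CPM in RA (log2 difference -2.78, SE 0.19, edgeR adjusted p = 4.71e-08). Gja5, the gene of the atrial connexin 40, had 244, 150 and 261 CPM in LA and 189, 129 and 188 CPM in RA, so that the atria overlapped although each animal was higher on the left (log2 difference -0.36), and its call was lost without the animal block.

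Of 29 potassium channel genes, 8 were higher in LA, 4 were higher in RA and 17 were not called. Kcnk2, the gene of the stretch-sensitive TREK-1 channel, had 2.4, 2.28 and 3.13 CPM in LA and 0.265, 0.135 and 0.17 CPM in RA (log2 difference -3.79). The small-conductance calcium-activated channel Kcnn3 (-0.95) and the background channel Kcnk3 (-0.40) were also higher in LA. Abcc9, a sulfonylurea receptor subunit, was higher in RA by 0.39. The acetylcholine-activated channel genes Kcnj3 and Kcnj5 were not called at 0.09 and 0.16.

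**Figure D4:**
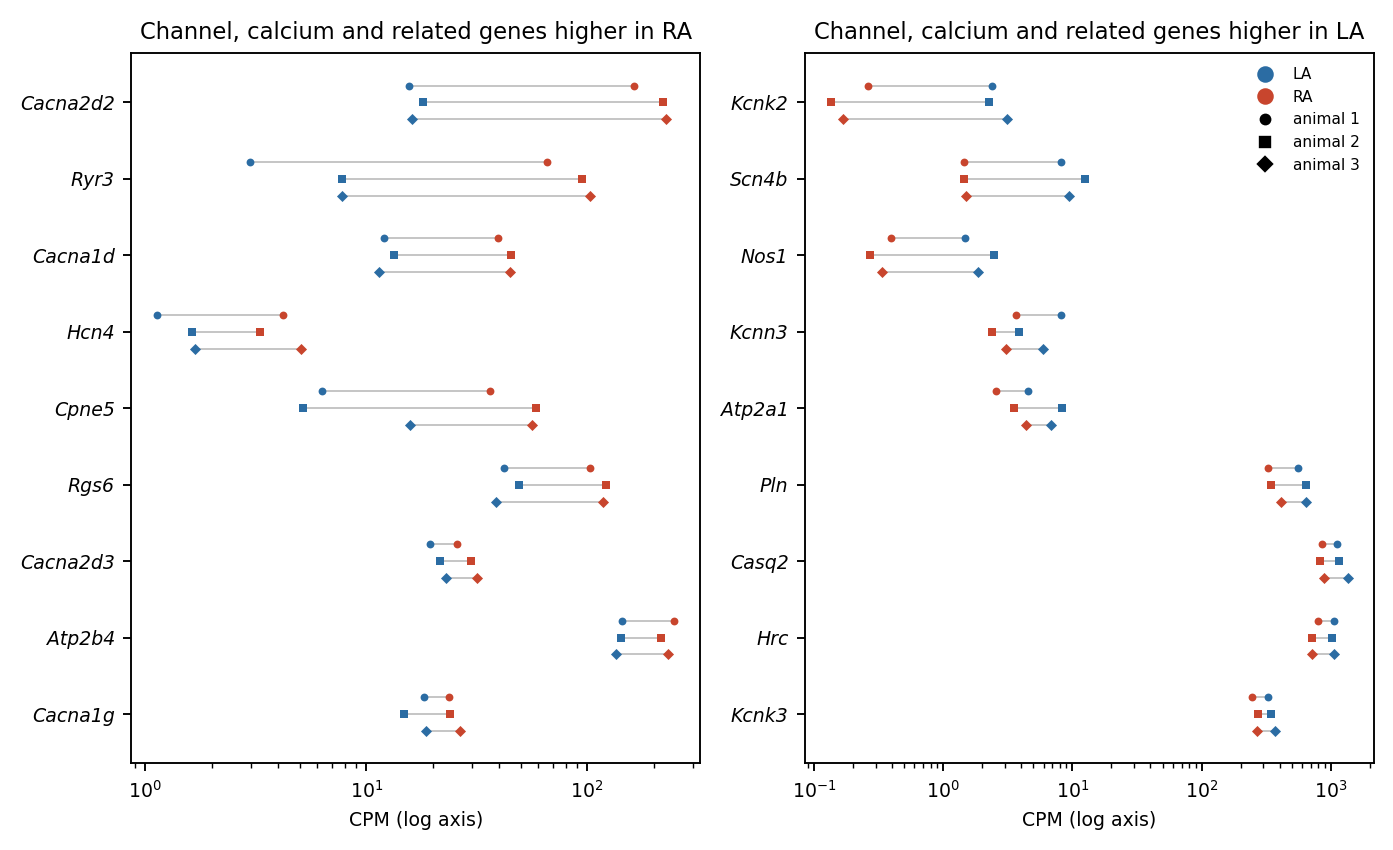
Level in CPM (log axis) of channel, calcium and related genes that were called, 9 higher in RA (left panel) and 9 higher in LA (right panel), with LA in blue, RA in red and a symbol for each of the 3 KO animals. Cacna2d2 and Ryr3 show the widest gaps among those higher in RA, and Kcnk2 and Scn4b among those higher in LA, while Pln, Casq2 and Hrc are abundant genes with narrow gaps.

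Autonomic and vasoactive signalling genes differed in both directions. Of 23 adrenergic and muscarinic genes, 7 were higher in RA and 9 were higher in LA. Besides Rgs6, the adenosine receptor Adora1 was higher in RA by 0.61. Rgs4, another brake on G-protein signalling, had 5.43, 9.69 and 8.4 CPM in LA and 2.56, 2.27 and 2.68 CPM in RA (log2 difference -1.64, edgeR adjusted p = 1.43e-06). The muscarinic receptor Chrm2 was higher in LA (log2 difference -0.24), a call lost without the animal block. Dbh, the enzyme that makes noradrenaline from dopamine, had 3.09, 1.29 and 3.47 CPM in LA and 18.1, 19.5 and 20.6 CPM in RA (log2 difference 2.91, SE 0.22, edgeR adjusted p = 4.37e-05). Pnmt, which turns noradrenaline into adrenaline, went the other way at 0.76 to 1.48 CPM in LA and 0.203 to 0.372 CPM in RA (log2 difference -2.07). The summed level of 30 neuron and Schwann cell markers, Dbh included, was 105 to 112 CPM in LA and 126 to 132 CPM in RA, with Chat and Chga at 0 in all KO libraries. Without Dbh the sum overlapped between the atria (102 to 109 CPM in LA, 105 to 112 CPM in RA).

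Of 22 vasoactive peptides and receptors, 10 were higher in RA, 6 were higher in LA and 6 were not called (median 0.23). Adm was accompanied by parts of its receptor: Ramp2 was higher in RA by 0.64, although its reads may be shared with Vps25, which overlaps it, and Ramp3, under 1 CPM, by 1.75. Ramp1, which pairs with the same receptor for another peptide, was higher in LA (log2 difference -1.17). Ednrb, an endothelin receptor, had 71.8, 67.7 and 89.6 CPM in LA and 123.1, 125.1 and 158.6 CPM in RA (log2 difference 0.83). Ace, the angiotensin-converting enzyme, had 48.5, 73.3 and 73.7 CPM in LA and 13.1, 22.3 and 21.8 CPM in RA (log2 difference -1.78, SE 0.07, edgeR adjusted p = 4.39e-13). Apln, the gene of apelin, was higher in LA (log2 difference -1.35), and Nos1, the neuronal nitric oxide synthase, had 1.48, 2.48 and 1.86 CPM in LA and 0.397, 0.271 and 0.339 CPM in RA (-2.53). The subunits of soluble guanylate cyclase, which form a dimer, differed in opposite directions, Gucy1b1 with 0.60 and Gucy1a1 with -0.78.

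Markers of endothelium and endocardium were called higher in RA more often than in LA. Of 28 tested, 13 were higher in RA, 5 were higher in LA and 10 were not called (median 0.22), and without the animal block 8 and 4 were called. Vwf, the gene of von Willebrand factor, had 267, 246 and 195 CPM in LA and 659, 508 and 519 CPM in RA (log2 difference 1.25, SE 0.06, edgeR adjusted p = 8.26e-11). Emcn (0.66), Tek (0.58) and Kdr (0.37) were also higher in RA, whereas the capillary gene Rgcc (-1.17), the arterial factor Sox17 (-0.71) and the phosphatase Ptprb (-0.35) were higher in LA. Cdh5, found in all endothelium, was not called at -0.05, nor were Esam (-0.07) and Erg (0.18). Pecam1 (0.26), Flt1 (0.26) and Tie1 (0.21) were higher in RA. The summed level of the 30 markers was 4095 to 4141 CPM in RA and 2825 to 3240 CPM in LA. Vwf, Eng, Npr3 and Hey1 are members of this sum, and without these 4 it was 2040 to 2079 CPM in RA and 1765 to 1939 CPM in LA. The part of this remaining difference in the higher levels of those genes and of Ednrb in RA was not tested.

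Macrophage and monocyte markers went both ways. Of 22 tested, 9 were higher in RA and 3 were higher in LA (median 0.26), but 2 and 1 were called without the animal block, and without animal 2 the count for RA was 5. Trem2, a receptor of lipid-handling macrophages, had 1.06, 1.16 and 1.61 CPM in LA and 3.39, 3.01 and 3.42 CPM in RA (log2 difference 1.35). The monocyte receptor Ccr2 was higher in RA by 1.32, and Lyve1, of resident macrophages and lymphatic vessels, by 0.81, although their level differed among animals, Lyve1 overlapped between atria and both calls were lost without the animal block. Mrc1, the mannose receptor, had 75.9, 81.8 and 88 CPM in LA and 47.3, 41.8 and 42.6 CPM in RA (log2 difference -0.90), and Retnla, a gene of alternatively activated macrophages, was higher in LA (log2 difference -2.01). The summed markers had 470 to 500.3 CPM in LA and 518 to 607 CPM in RA, or 364 to 369 and 408 to 479 CPM without Mrc1 and Lyve1. Vsig4 and Cd207, higher in RA, and Clec10a and Pla2g2d, higher in LA, were described above, and the part of these sums in their differences was not tested.

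Fibroblast and collagen genes were called higher in LA more often than in RA. Of 19 fibroblast markers, 8 were higher in LA, 2 were higher in RA and 9 were not called (median -0.29). Besides Scara5 and Pi16, Clec3b had 43, 29.6 and 25.9 CPM in LA and 9.04, 5.25 and 4.95 CPM in RA (log2 difference -2.37), and Cd248 (-1.87), Mfap5 (-1.13) and Pdgfra (-0.56) were higher in LA. Dpt, Gsn, Ddr2 and Meox1 were not called, Comp (0.75) and Tcf21 (0.43) were higher in RA with calls that were lost without the animal block, and the summed level of the 20 markers overlapped between the atria (2762 to 3770 CPM in LA, 2849 to 2958 CPM in RA). Of 30 collagen genes, 15 were higher in LA, 2 were higher in RA and 13 were not called (median -0.24), which became 8 and 0 without the animal block and 8 and 2 without animal 1. Col15a1, of basement membranes, had 386, 179 and 212 CPM in LA and 140, 91.7 and 106 CPM in RA (log2 difference -1.15), and Col8a1 differed by -0.80. The fibrillar collagens Col1a1, Col1a2 and Col3a1 were not called, at -0.04, -0.12 and -0.21.

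Other matrix genes went both ways, with 19 of 60 higher in LA and 16 higher in RA (58.3% called, against 18.4% of all genes tested). Mfap4, a microfibril protein, had 62.8, 35.2 and 40.6 CPM in LA and 9.87, 6.02 and 7.19 CPM in RA (log2 difference -2.57, SE 0.07, edgeR adjusted p = 1.47e-14). The hyaluronan synthase Has2 (-2.85), the hyaluronan-binding proteoglycan Vcan (-1.49), the gelatinases Mmp9 (-1.62) and Mmp2 (-1.45), the cross-linking enzyme Lox (-1.23) and elastin, Eln (-0.65), were all higher in LA. Postn, the matricellular protein periostin, had 69.8, 65.4 and 80.6 CPM in LA and 148, 139 and 146 CPM in RA (log2 difference 1.01), and Ecm1 and Ecm2 were higher in RA by 0.75 and 0.74. Epicardial and mesothelial markers had no member higher in RA and 6 of 17 higher in LA, among them the complement gene C3 (993, 1141 and 1213 CPM in LA, 529, 471 and 683 CPM in RA, log2 difference -1.01), whose call was lost without animal 1 (edgeR adjusted p = 0.0541). The summed level of all 17 was 1678 to 1967 CPM in LA and 1094 to 1441 CPM in RA, and without C3 it overlapped between the atria (685 to 803 CPM in LA, 573 to 758 CPM in RA).

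In lists of contraction and oxidative metabolism, more members were called higher in LA than in RA, and many members were not called. Of 83 nuclear genes of the respiratory chain, 57 were higher in LA and 2, Ndufa4l2 and Cox4i2, were higher in RA, with a median log2 difference of -0.20 and a range of -0.44 to 0.72. The calls of Ndufa4l2 and Cox4i2 were each lost when some single animals were left out. Sdhb, a subunit of complex II, had 347, 370 and 361 CPM in LA and 283, 296 and 274 CPM in RA (log2 difference -0.34, SE 0.05, edgeR adjusted p = 1.02e-04), and Atp5j2, of the ATP synthase, had 241 to 260 against 192 to 209 CPM. The number of calls depended on the analysis while the median moved little: 28 were higher in LA without the animal block (median -0.20), and 39, 36 and 28 without animal 1, 2 and 3 (medians of -0.21, -0.22 and -0.18). Of 76 mitochondrial ribosomal protein genes, 15 were higher in LA, 0 were higher in RA and 61 were not called. The share called, 19.7%, was near the 18.4% of all genes tested, of which 9.76% were higher in LA. The mitochondrially encoded protein genes were not called except mt-Co3 (log2 difference 0.63) and mt-Nd4 (-0.17), which went opposite ways. Both have near-identical nuclear copies, as do several of the others. Counts of mt-Co3 were only 53 to 107 per KO library. Those of mt-Co2, mt-Atp6, mt-Atp8, mt-Nd3 and mt-Nd4l lay between 6 and 124, so these genes were barely measured.

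Of 40 genes of fatty acid uptake and oxidation, 18 were higher in LA, 3 were higher in RA and 19 were not called (median -0.16, range -0.67 to 0.52), with 5 and 1 called without the animal block. Fabp3, the cytosolic fatty acid carrier of muscle, had 413, 476 and 424 CPM in LA and 293, 327 and 298 CPM in RA (log2 difference -0.52), Acsl1, which activates fatty acids, differed by -0.53 and the transporter Cd36 by -0.46, both calls being lost without the animal block. Ucp2, a carrier of the inner mitochondrial membrane, was higher in RA by 0.52. In glycolysis and glucose uptake, 10 of 32 were higher in LA and 6 were higher in RA: the insulin-responsive transporter Slc2a4 (-0.36) and the muscle enzymes Eno3 (-0.69) and Pgam2 (-0.44) stood on the left, and the ubiquitous transporter Slc2a1 (0.53) and the liver-type phosphofructokinase Pfkl (0.59) on the right.

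Of 48 sarcomere and Z-disc genes, 22 were higher in LA, 3 were higher in RA and 23 were not called (median -0.20), with differences from -0.99 for Lmod3 to 4.97 for Myl2, and 11 and 1 were called without the animal block. Actc1, cardiac actin, had 5466, 5929 and 5289 CPM in LA and 3640, 4002 and 3469 CPM in RA (log2 difference -0.59, SE 0.06, edgeR adjusted p = 4.11e-07). Tnnt2, cardiac troponin T, had 6781, 7873 and 9032 CPM in LA and 5184, 5713 and 5894 CPM in RA (-0.49). Lmod3, which nucleates thin filaments, differed by -0.99 and Tcap, the cap of titin, by -0.93, whereas Ttn (0.04) and Myh6 (-0.12) were not called. Ckmt2, the mitochondrial creatine kinase of muscle, had 640 to 674 CPM in LA and 320 to 330 CPM in RA (-1.02). The summed level of 16 cardiomyocyte markers was 61560 to 67670 CPM in LA and 55970 to 59860 CPM in RA, and without its members Actc1, Tnnt2 and Ckmt2 it overlapped (48640 to 52710 CPM in LA, 46720 to 49810 CPM in RA).

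**Figure D5:**
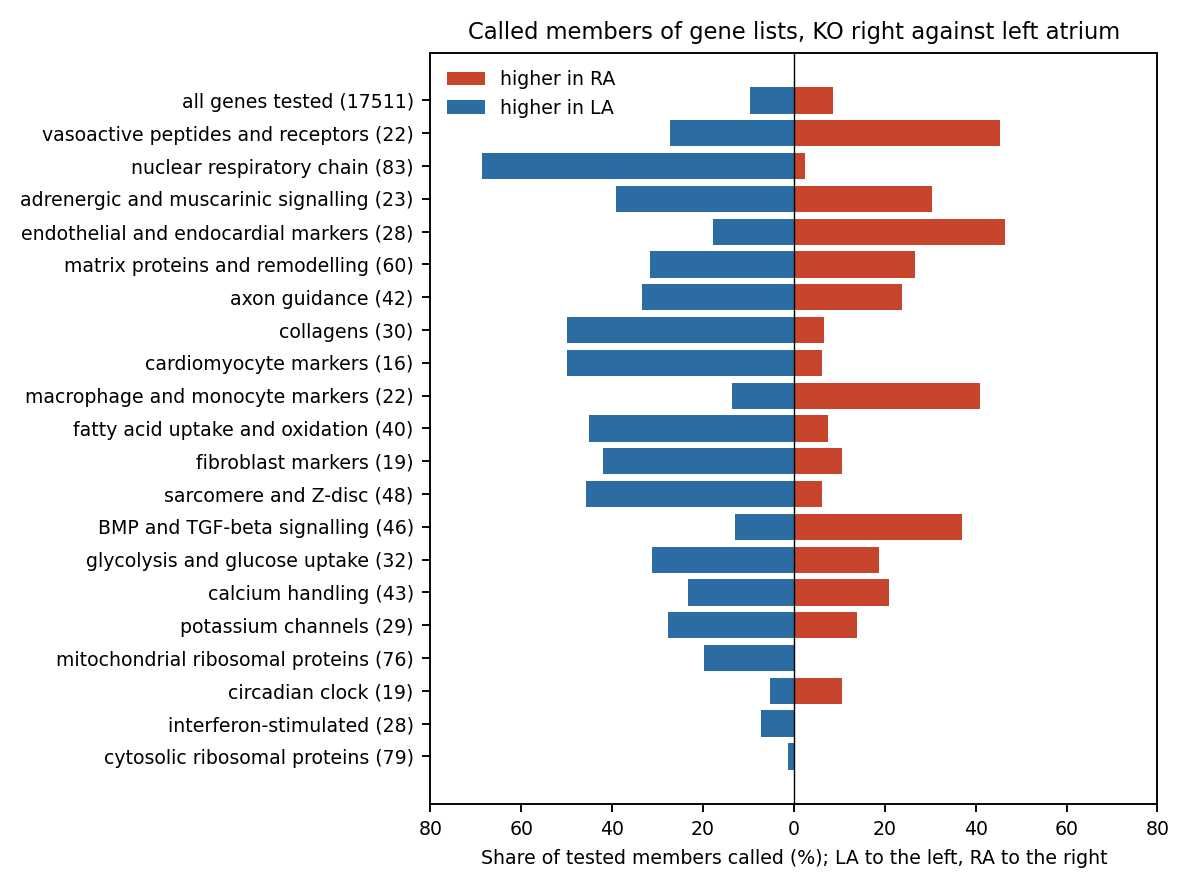
Share of tested members called (%) in 20 gene lists and over all genes tested, higher in RA to the right in red and higher in LA to the left in blue, with the number tested in brackets. The respiratory chain, collagen, sarcomere and fatty acid lists extend to the left, the endothelial, macrophage and BMP lists to the right, and cytosolic ribosomal proteins hardly depart from 0, against 8.66% and 9.76% over all genes.

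Signals that guide cells and axons differed strongly for a few members. Of 42 guidance genes, 10 were higher in RA and 14 were higher in LA (57.1% called, against 18.4% of all genes tested). Efnb3 had 3.54, 3.14 and 4.87 CPM in LA and 47.1, 68.1 and 47.7 CPM in RA (log2 difference 3.79, SE 0.22, edgeR adjusted p = 1.12e-04), and Ntn1, netrin 1, was higher in RA by 0.81 together with its receptor Unc5b (0.92). Sema3c, a semaphorin of the outflow tract, had 76.5, 89.3 and 95.6 CPM in LA and 30.2, 35.8 and 43.8 CPM in RA (log2 difference -1.26). Robo2, a receptor of Slit proteins, had 1.2 to 1.49 CPM in LA and at most 0.22 CPM in RA. In Wnt signalling, 7 of 32 genes were higher in RA and 6 were higher in LA (40.6% called). Sfrp5, a secreted Wnt inhibitor known from the sinus venosus, had 26.4, 30 and 32.8 CPM in LA and 93.5, 110.5 and 122 CPM in RA (log2 difference 1.86, SE 0.07, edgeR adjusted p = 1.63e-12), and the related Frzb was higher in RA by 1.39.

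The contrast between atria of KO mice had the same direction in the other genotypes for most genes. Het mice were paired in the same way and in the same fit, and 3240 genes (18.5%) were called between their atria. Of the 3226 genes called in KO mice, 3172 had the same sign in Het mice and 2331 were called there too. No gene was called in the test of the difference between the KO and the Het contrast by edgeR (672 with an unadjusted p under 0.05, smallest adjusted p = 0.401), and none by DESeq2 or limma-voom. Without animal 1 of the KO mice 6 genes were called, and without Het animals 2 and 3, each left out in turn, 3 and 4. Bmp10 had a log2 difference of 11.89 in KO and 11.33 in Het mice, and Cacna2d2 had differences of 3.61 and 3.47. All Het libraries showed the female and all WT libraries the male pattern of sex-linked genes, and KO animals were of both patterns, so genotype and sex are partly confounded in the differences between genotypes. The difference from Het was not tested within 1 sex.

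In WT mice, the columns of RA replicates 1 and 2 are identical and were counted as 1 library, which leaves 2 WT right atria of which 1 cannot be tied to an animal. WT values therefore came from a fit of all 17 distinct libraries without the animal block, in which 2139 of 18018 genes (11.9%) were called between WT atria 1504 (8.35%) between KO atria and 1386 (7.69%) between Het atria. Of the 3226 genes called in KO mice, 3062 had the same sign in WT mice, 1482 were called there in the same direction and 0 in the opposite one. The difference between the KO and the WT contrast called no gene by edgeR (711 with an unadjusted p under 0.05, smallest adjusted p = 0.995), none by limma-voom and 1 by DESeq2. Without KO animal 1, which leaves only libraries of the male pattern in this difference, edgeR also called 0 genes (560 with an unadjusted p under 0.05). With the animal block, it called 8 genes when the shared WT RA library was tied to WT animal 1 and 98 when it was tied to WT animal 2.

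The sizes of the contrasts were read in both directions, because genes chosen as called in 1 genotype favour large values there. Among the 2139 genes called in WT mice, the median size was 0.58 in WT and 0.38 in KO along the same direction, with 1838 smaller in KO. Among the 1504 genes called in KO mice in that fit, the median was 0.80 in KO and 0.69 in WT, with 786 smaller in WT. BMP pathway genes give examples: Smad6 differed between atria by 1.64 in KO, 1.61 in Het and 2.38 in WT mice, Smad7 by 1.09, 0.99 and 1.77, and Id2 by 1.21, 1.08 and 1.80. Myl2 went the other way, with 4.97 in KO, 4.61 in Het and 1.89 in WT mice. No difference from WT was called for any of them. Mitochondrially encoded genes took 24.13 to 26.71% of the counts in WT LA and 19.73 to 21.61% in WT RA, without overlap, whereas the KO atria overlapped. The part of this difference in the sizes of the WT contrast was not tested.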

How the data were processed

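Gene counts of 18 samples were deposited by the authors as 1 table of whole numbers. STAR 2.7.9a, DESeq2 1.30.1 and the mm10 build are listed in the submitters' processing notes, and no source used here gives the counting tool, annotation or strand. Of 56691 gene IDs, 52073 were matched by base ID to GENCODE M21 (GRCm38), 35 of them also by version.

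Tests used edgeR 4.0.16 in R 4.3.3 (filterByExpr with a minimum count of 10, TMM, robust quasi-likelihood F test) on the 6 KO and 6 Het libraries, with the animal as a block, taken from the animal numbers in the labels, and a separate right-left effect for each genotype. Benjamini-Hochberg adjusted p under 0.05 over all genes counts as called. CPM values carry TMM scaling, and log2 differences are RA minus LA. The labels do not say how tissue was split beyond the animal, so the spread measured is that between 3 mice.

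Genes were named by a rule: among called genes of at least 5 CPM in the higher atrium and the same direction in all 3 animals, the 12 largest differences in each direction; the 2 members of lowest p in every list that had at least 3 called; the tested identity genes; and Zfhx3. Others are examples, and some genes that the rule names are not reported here. The comparison, its members and the 47 gene lists were chosen with earlier results of these data known. Alternatives were DESeq2 1.42.0, limma-voom (limma 3.58.1), other scalings, no filter, no block, KO libraries alone, all libraries and each animal left out. On simulated data the share of false calls of the test was near the nominal one with trended dispersions. It was above the nominal one with the more widely spread gene-wise dispersions, so more of the calls than the nominal share may be false. The simulation changed far fewer genes than were called here, so its share of false calls may not carry over. Counting intervals cover counting error only.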

Additional observations from a re-analysis of the deposited data

How the results depend on the processing

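Of 103 genes named by the rule, 94 were called and 66 of these were called in all 17 alternatives; the direction reversed for 3 that were never called in the main analysis, Tbx3 (-0.014 to 0.15 over the analyses that left out a KO replicate, negative without replicate 1), Vsnl1 (-0.15 to 0.066, positive without replicate 1, and 0.0085 with library totals only) and Zfhx3 (-0.077 to 0.13, negative without replicates 1 and 3). Without the replicate block the calls between KO atria fell to 1632 with the Het libraries, 1626 with KO libraries alone and 1504 with all libraries, and those between Het atria to 1523. The causes of these and the following changes were not tested beyond their construction. Leaving out replicates gave 2117 to 3395 calls between KO atria, 2236 to 3225 between Het atria, 611 to 2269 between WT atria, 0 to 6 for KO minus Het and 0 to 1 for KO minus WT; the lowest WT counts came without WT RA replicate 1 (611) and replicate 3 (1008), after which the lone WT right atrium borrows its spread from the other groups. Between WT atria, 3441 genes were called with library totals only, and 3351 and 3901 with the replicate block when the shared library was tied to WT LA replicate 1 or 2. With no filter on low counts, 49 genes were called for KO minus Het and 140 for KO minus WT; DESeq2 called 1 for KO minus WT. The replicate block gave 8 and 98 for KO minus WT under these pairings. Of 444 called list members, 108 to 135 were no longer called when 1 KO animal was left out, and 202 without the block, so that small differences are the least certain at this depth and number of animals. Alternatives added after seeing the data were KO minus WT without KO animal 1, which called 0 genes, the random block for WT and for KO minus WT, the list counts, and the marker sums without named members.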

Other observations

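Genes outside the comparisons above also separated the KO atria. Cenpf, a kinetochore and microtubule-binding protein that rises in dividing cells, had 2.75, 1.42 and 1.4 CPM in LA and 22.1, 16 and 17.9 CPM in RA (log2 difference 3.35, SE 0.21, edgeR adjusted p = 1.55e-06). The other cell cycle genes did not share this size. Of 35 tested, Cenpf included, 4 were higher in RA and 1 was higher in LA. The share called, 14.3%, was not above the 18.4% of all genes tested. The other 3 higher in RA were Mcm3, Mcm4 and Mcm7, by 0.27 to 0.39 with calls that were lost without the animal block. The proliferation genes Mki67 and Top2a were not called at 0.30 and 0.25. The log2 difference of Cenpf was 2.26 in Het and 3.50 in WT mice.

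Of 7 markers of lymphatic vessels, 4 were higher in LA and Lyve1 was higher in RA. Reln had 3.95, 2.74 and 3.88 CPM in LA and 0.353, 0.169 and 0.407 CPM in RA (log2 difference -3.50), Mmrn1 differed by -3.51, and the lymphatic chemokine Ccl21a by -5.77, whose near-identical copies may share its reads. Prox1 and Flt4, which also mark these vessels, were not called at -0.07 and 0.24. Among smooth muscle and pericyte markers, 7 of 15 were higher in LA and 3 were higher in RA. Rgs5, of pericytes, had 294, 349 and 374 CPM in LA and 124, 94.2 and 99.5 CPM in RA (log2 difference -1.69), and Vtn and Higd1b were also higher in LA, while Pdgfrb was not called at -0.11.

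Isoforms known from skeletal muscle were divided. Tnni2, fast troponin I, had 4.54, 5.69 and 7.23 CPM in LA and 0.882, 0.711 and 0.441 CPM in RA (log2 difference -3.12). Actn3, an actinin of fast fibres, was higher in RA by 1.53, and Pvalb, a calcium buffer of fast fibres, had 0.745 to 2.07 CPM in RA and at most 0.103 CPM in LA. Myod1, which defines skeletal muscle cells, was at 0 in all KO libraries. Cnmd, a cartilage and valve protein, had 176 counts over the RA libraries and 3 over the LA libraries (ratio 65.7, 95% interval of counting error 22.1 to 322).

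Other lists are given with the share of their members called, against 18.4% of all genes tested. Of 79 cytosolic ribosomal protein genes, 1 was called (1.27%), the muscle paralog Rpl3l (-0.51, higher in LA). In the circadian clock list 15.8% of 19 genes were called, close to the share of all genes, and 2 were higher in RA, Rora (log2 difference 0.29) and Bhlhe40. Rora lost its call without animal 2, Bhlhe40 without animal 1 or 3, and both without the animal block. Of 28 interferon-stimulated genes 2 were called (7.14%), and of 24 immediate early and heat shock genes 3 (12.5%), all higher in LA, with Egr3 at -1.60, a call lost without the animal block. None of the 3 tested lung and airway markers and none of 7 erythroid genes was called.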
